A study of Mus musculus with 10 samples.

Results

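Ces1d, 4 lipase genes and 2 genes of fat cell secretory products were followed across the ventricles of mice with an altered tropomyosin. The 7 genes were Ces1d, Lpl, Pnpla2, Lipe, Mgll, Adipoq and Cfd. They were picked by name, Ces1d because its intensity was lower than in controls in both transgenic lines, and the others because they hydrolyse the same class of lipids or mark fat cells. Of these, 6, carried by 13 probe sets, were measured, out of 12393 genes and 22626 probe sets, while no probe set was paired with Cfd, which is not analysed here. Because Ces1d was chosen on its difference from control ventricles, those differences are given as a description, with no p-value and no interval.

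Ventricular total RNA from mice of the lines alpha-TM175 (TM175) and alpha-TM180 (TM180) and from their nontransgenic controls (NTG) was measured on Affymetrix arrays that read the 3′ end of transcripts, in a study of early mild and severe cardiac hypertrophy. The lines take their names from residues of alpha-tropomyosin, the coiled-coil protein on the thin filament of the sarcomere, that are altered in familial hypertrophic cardiomyopathy. TM175 had 3 arrays, TM180 4 and NTG 3, in all 10, and in each genotype 1 array carried RNA combined from 20 hearts whereas the rest carried an extract of a single animal. The promoter of the transgenes and the strain, age and sex of the mice are not given in the sources used here, and the labels name no treatment. The labels do not say whether the pools included the hearts measured alone, so that p-values measure the spread between these extracts. In each line and in NTG the pool is the array with the highest number, array 3 in TM175 and NTG and array 4 in TM180.

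Triglyceride reaches the heart in lipoproteins and is also stored in droplets inside cardiomyocytes. Lipoprotein lipase, made by cardiomyocytes and moved to the capillary wall, frees fatty acids from circulating lipoproteins. Inside cells, adipose triglyceride lipase (Pnpla2), hormone-sensitive lipase (Lipe) and monoglyceride lipase (Mgll) remove the fatty acids from stored triglyceride in turn. Ces1d encodes carboxylesterase 1D, also called triacylglycerol hydrolase, an enzyme of the endoplasmic reticulum and lipid droplets best known from mouse liver and fat. Adipoq encodes adiponectin and Cfd adipsin, both secreted by fat cells.

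Some arrays stood apart before any gene was considered. Pooled and individual extracts differed at 22.2% of all probe sets (limma, Benjamini-Hochberg adjusted p under 0.05) but at 0 of the 13 followed here, and each value below is also given with extract type as a covariate or within an extract type where that matters. TM175 array 1 read 987.6 for Xist, the RNA that coats an inactive X, where the other 6 individual arrays read 99.5 to 136, and 7.234 for the Y-linked Eif2s3y, where they read 44.7 to 60.8. The pools differed in these genes too, with Xist at 414.1 in TM175, 393.7 in TM180 and 148.8 in NTG and Eif2s3y at 38.3, 35.29 and 46.66. Differences in TM175 of the genes described are also given without TM175 array 1, except for the dim probe sets, a second Thrsp probe set and the list medians, sums and counts. Summed cardiomyocyte markers (6 genes with a settled level) ran from 37389 to 41252 in TM175, 37376 to 41225 in TM180 and 40745 to 42450 in NTG ventricles. The sums include Myh6, which read 10.44 to 508.7 in TM175, 9.157 to 952.3 in TM180 and 69.01 to 1623 in NTG ventricles. Its point was kept as a decimal mark on TM175 array 1 (10.44) and TM180 array 3 (9.157). Read without that mark, these values would raise the sums of both arrays, so the ranges of the lines are not firm. Of the 8 cardiomyocyte markers 0 passed in any genotype comparison. Over all probe sets 0.00884% passed in TM175, 0.504% in TM180 and 0% between the lines. At such shares 0 calls among a few genes, here and in the lists below, say little. In whole ventricles, fewer cells of a type and less RNA per cell cannot be told apart.

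Ces1d was lower in every transgenic array than in every NTG array, with all 3 of its probe sets. Its brightest probe set, 1449081_at, read 168.1, 234.1 and 266.7 in TM175 arrays 1 to 3, 306.1, 92.23, 153.7 and 146.7 in TM180 arrays 1 to 4, and 413.5, 332.5 and 331.7 in NTG arrays 1 to 3. TM180 array 1 came closest to NTG, and TM180 array 2 lay lowest. The means were 223 ± 50.2 in TM175 (SD, n = 3), 175 ± 91.8 in TM180 (SD, n = 4) and 359 ± 47.0 in NTG ventricles (SD, n = 3). On geometric means Ces1d was 1.63-fold lower in TM175 and 2.25-fold lower in TM180 than in NTG, log2 differences of -0.71 and -1.17.

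The second probe set, 1435370_a_at, read 68.01, 83.46 and 103.9 in TM175, 110.2, 33.56, 61.13 and 47.75 in TM180, and 191.6, 166.4 and 186.3 in NTG ventricles. Here the gap to NTG was wider, 2.16-fold in TM175 and 3.16-fold in TM180 (log2 differences of -1.11 and -1.66). The third, 1435371_x_at, is dim and of a type whose probes can also bind related transcripts. It read 9.41, 11.73 and 11.11 in TM175, 13.81, 8.246, 8.64 and 10.39 in TM180, and 21.02, 21.82 and 29.06 in NTG ventricles. Its log2 differences from NTG were -1.15 in TM175 and -1.24 in TM180.

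**Figure D1:**
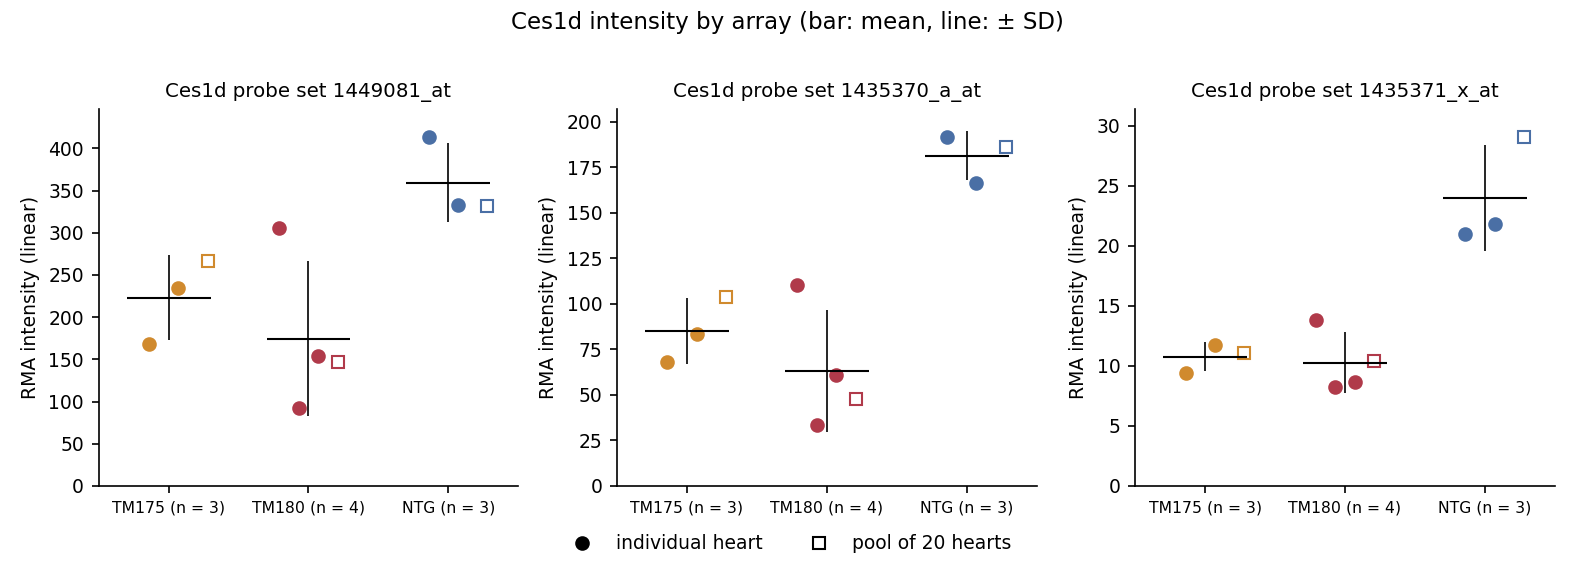
RMA intensity of the 3 Ces1d probe sets (vertical axes, linear) on the TM175, TM180 and NTG arrays (horizontal axis). Circles are individual hearts, open squares pools of 20 hearts, horizontal bars means and vertical lines ± SD. In each panel all 7 transgenic arrays lie below all 3 NTG arrays, and TM180 array 1 is the highest of its line.

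The 3 probe sets ranked the arrays much alike over all 10, with Spearman rho between pairs of 0.988, 0.903 and 0.915. Within NTG they did not, since array 1 was highest for 1449081_at and array 3 for 1435371_x_at. Over the 10 arrays, log2 intensities of 1449081_at correlated with those of 1435370_a_at at r = 0.974 and with those of 1435371_x_at at r = 0.836, and within the 7 transgenic arrays at 0.984 and 0.891. These are probes of 1 gene on shared arrays, so the correlations describe how alike the readings are. TM180 ventricles spread most, with a ratio of highest to lowest array of 3.32 for 1449081_at, against 1.59 in TM175 and 1.25 in NTG ventricles.

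The difference from NTG was below 0 in each kind of extract, although its size in TM175 depended on the kind. Between individual extracts the log2 difference of 1449081_at was -0.90 in TM175 and -1.18 in TM180. Between the pools, with 1 array a genotype and no replicate, it was -0.31 in TM175 and -1.18 in TM180. For 1435370_a_at the pools differed by -0.84 in TM175 and -1.96 in TM180. The transgenic pools also stood above the NTG pool for Xist and below it for Eif2s3y, and the part of this in the pooled differences was not tested. Without TM175 array 1 the 3 probe sets had differences in TM175 of -0.52, -0.96 and -1.05.

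Whether the lines differed from each other was not part of the choice of Ces1d and could be tested. TM180 minus TM175 was -0.46 ± 0.32 SE for 1449081_at (95% interval -1.18 to 0.25, adjusted p = 0.515), -0.55 ± 0.32 for 1435370_a_at (-1.25 to 0.16, adjusted p = 0.451) and -0.09 ± 0.18 for 1435371_x_at (-0.50 to 0.32, adjusted p = 0.825). The arrays of the lines overlapped for all 3 probe sets, and the intervals allow a level in TM180 from well below that in TM175 to slightly above it. The order of the group means was thus NTG, TM175, TM180 from high to low, with the last pair not separated beyond their spread. Pooled and individual extracts did not pass a test of their difference for Ces1d either, at 0.03 ± 0.28 for 1449081_at (adjusted p = 0.95).

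Ces1d lies between Ces1c and Ces1e in a row of related carboxylesterase genes, Ces1a to Ces1h, by the RefSeq order of mouse genes. Of 19 related esterases and neutral hydrolases on the list, 9 were measured. In the 3 genotype comparisons 0 passed in either direction, where at most 0.504% of all probe sets did. All but Ces4a and Aadac read at most 28.09 on any array, beside array medians of 66.485 to 70.735. At that level a lack of calls says little. The neighbour Ces1c read 11.46 to 16.4 in TM175, 11.84 to 13.39 in TM180 and 13.24 to 13.38 in NTG ventricles. The neighbour Ces1e read 12.65 to 14.28 in TM175, 11.25 to 11.9 in TM180 and 10.82 to 12.74 in NTG ventricles, so that for both genes each line overlapped NTG, while all TM180 arrays were below all TM175 arrays for Ces1e. The median over the 9 genes was 0.13 on the log2 scale in TM175 and -0.00 in TM180, beside 0.04 and -0.01 over all probe sets. Ces4a, a carboxylesterase on the same list, had a difference of -0.24 in TM180 (adjusted p = 0.378), with TM180 arrays at 65.43 to 71.02 and NTG arrays at 73.68 to 85.21.

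Among the lipases, Lpl had the smallest adjusted p in TM180, by 1 of its 2 probe sets, whereas in TM175 that was Pnpla2. Probe set 1431056_a_at read 2637, 2936 and 2539 in TM175, 2714, 1991, 2411 and 2504 in TM180, and 3843, 3297 and 3563 in NTG ventricles. All 7 transgenic arrays were below all NTG arrays, and within TM180 the highest and lowest were again arrays 1 and 2. The means were 2704 ± 207 in TM175 (SD, n = 3), 2405 ± 304 in TM180 (SD, n = 4) and 3568 ± 273 in NTG ventricles (SD, n = 3).

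The log2 difference of Lpl 1431056_a_at in TM180 was -0.58 ± 0.12 SE (95% interval -0.83 to -0.32), 1.49-fold lower than in NTG, with an adjusted p of 0.0667 that missed the threshold. With extract type in the model the difference was -0.58 and passed (adjusted p = 0.0239), also without TM175 array 1 (adjusted p = 0.031). In TM175 the difference was -0.40 ± 0.12 (-0.68 to -0.12, adjusted p = 0.239, and 0.108 with extract type), which did not pass, and without TM175 array 1 it was -0.38 (adjusted p = 0.479). TM180 minus TM175 was -0.18 ± 0.12 (-0.43 to 0.08, adjusted p = 0.497). Pools and individual hearts gave like differences from NTG for this probe set, -0.49 and -0.36 in TM175 and -0.51 and -0.60 in TM180.

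The other Lpl probe set, 1415904_at, did not share this. The deposited numbers could be read as 6998, 6717 and 6392 in TM175, 6496, 5637, 6962 and 6220 in TM180, and 6692, 7645 and 6684 in NTG ventricles, or with the point kept as a decimal mark, and the file does not settle which. Log2 differences from NTG are the same either way, -0.06 ± 0.10 for TM175 arrays (adjusted p = 0.822, and -0.09 without TM175 array 1) and -0.15 ± 0.10 for those of TM180 (95% interval -0.37 to 0.07, adjusted p = 0.786). The groups overlapped, so the probe sets of Lpl disagree, and the call on Lpl rests on 1431056_a_at.

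Partners of lipoprotein lipase gave no call. Of 17 genes on that list, which holds its inhibitors, its maturation factors, apolipoproteins and remnant receptors, 12 were measured. Of these 0 passed in any genotype comparison with or without extract type, where at most 2.01% of all probe sets did. Angptl4, a secreted inhibitor of lipoprotein lipase, read 164 to 228.1 in TM175, 144.9 to 221.1 in TM180 and 127.6 to 139.2 in NTG ventricles. Both lines lay above all NTG arrays, with a difference of 0.51 ± 0.17 in TM175 (adjusted p = 0.256, and 0.0784 with extract type) and of 0.37 without TM175 array 1. Lrp1, a receptor for lipoprotein remnants, read 318.6 to 445.2 in TM180 and 202.9 to 239 in NTG ventricles. The difference of 0.79 ± 0.22 did not pass (adjusted p = 0.199, and 0.0683 with extract type). The list median was 0.08 in TM175 and -0.02 in TM180, near the 0.04 and -0.01 of all probe sets.

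Pnpla2, which takes the first fatty acid off stored triglyceride, was below NTG on every transgenic array with its bright probe set. This probe set, 1428143_a_at, read 748.1, 1197 and 860 in TM175, 1163, 1054, 912.1 and 980.7 in TM180, and 1509, 1439 and 1229 in NTG ventricles. TM175 array 1 was lowest and TM175 array 2 came close to the lowest NTG array, which was the pool. The means were 935 ± 234 in TM175 (SD, n = 3), 1027 ± 107 in TM180 (SD, n = 4) and 1392 ± 146 in NTG ventricles (SD, n = 3).

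The differences of Pnpla2 did not pass over all probe sets, at -0.60 ± 0.17 in TM175 (95% interval -0.97 to -0.23, adjusted p = 0.208, and 0.0734 with extract type) and -0.44 ± 0.16 in TM180 (-0.79 to -0.09, adjusted p = 0.354, and 0.147 with extract type). Without TM175 array 1 the TM175 difference was -0.45 (adjusted p = 0.464). Unlike Ces1d and Lpl, Pnpla2 had its lower mean in TM175, but TM180 minus TM175 was 0.16 ± 0.16 and did not pass (adjusted p = 0.636). The dim probe set of the gene, 1428591_at, read 17.04 to 27.6 in TM175, 18.76 to 21.24 in TM180 and 18.94 to 20.73 in NTG ventricles, with overlapping groups and differences of 0.16 and 0.03 from NTG, and 0.14 in TM175 without array 1.

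Lipe, whose enzyme acts next on diglyceride, read 123.8, 127.1 and 127.9 in TM175, 131.3, 121.1, 86.95 and 121.4 in TM180, and 158.4, 142.1 and 137.8 in NTG ventricles. Again all transgenic arrays were below all NTG arrays, with TM180 array 3 far below the rest of its line. The differences did not pass, with TM175 at -0.21 ± 0.14 (95% interval -0.52 to 0.11, adjusted p = 0.548) and TM180 at -0.36 ± 0.13 (-0.65 to -0.06, adjusted p = 0.387). Without TM175 array 1 the TM175 difference was -0.19 (adjusted p = 0.789).

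The promoters of Lipe and Pnpla2 are shown because these lipase genes were below NTG on the same arrays. They span 250 bases before to 50 bases after each annotated start, from RefSeq on GRCm38.p6, and such windows are not available here for Ces1d or Lpl. The 4 motifs searched on both strands were the E-box CACGTG, present in 7.15% of 32851 such windows, the GC box GGGCGG (35.7%), the CCAAT box CCAAT (37.4%) and the nuclear receptor element AGGTCA (16.3%). Capitals mark matches, which describe letters and are no evidence of binding. The Lipe start at chr7:25395938-25396237 (minus strand) held 1 E-box and 6 GC boxes, of which 2 overlap, the Lipe start at chr7:25390063-25390362 (minus strand) held none of the 4 motifs, and the Pnpla2 window at chr7:141454938-141455237 (plus strand) held 2 GC boxes.
Lipe, first start: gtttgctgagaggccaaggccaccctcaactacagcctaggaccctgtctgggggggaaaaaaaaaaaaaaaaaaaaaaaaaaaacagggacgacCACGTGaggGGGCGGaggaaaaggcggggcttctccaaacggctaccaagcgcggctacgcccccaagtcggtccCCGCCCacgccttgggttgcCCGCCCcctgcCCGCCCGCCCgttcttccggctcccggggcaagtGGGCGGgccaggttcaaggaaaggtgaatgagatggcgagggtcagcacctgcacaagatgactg
Lipe, second start: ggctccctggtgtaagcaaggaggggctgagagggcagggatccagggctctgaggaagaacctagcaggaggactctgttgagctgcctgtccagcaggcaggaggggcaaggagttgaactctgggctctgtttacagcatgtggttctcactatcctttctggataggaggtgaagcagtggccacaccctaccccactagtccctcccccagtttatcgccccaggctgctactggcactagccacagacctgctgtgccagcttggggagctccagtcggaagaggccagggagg
Pnpla2: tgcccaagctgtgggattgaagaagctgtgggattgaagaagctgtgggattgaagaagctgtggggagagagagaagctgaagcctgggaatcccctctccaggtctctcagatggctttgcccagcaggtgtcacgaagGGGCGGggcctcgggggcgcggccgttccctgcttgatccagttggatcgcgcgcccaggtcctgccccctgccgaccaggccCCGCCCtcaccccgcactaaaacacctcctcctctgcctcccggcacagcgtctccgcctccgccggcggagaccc

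Mgll, whose enzyme cleaves the last fatty acid, had 4 probe sets, and on all of them each line overlapped NTG. The probe set 1450391_a_at read 490.1, 512.2 and 644.7 in TM175, 604.9, 654, 497.6 and 473 in TM180, and 564.4, 462.6 and 489.1 in NTG ventricles, with differences of 0.11 ± 0.15 in TM175 (95% interval -0.23 to 0.45) and 0.13 ± 0.14 in TM180 (-0.18 to 0.45), and 0.19 in TM175 without array 1. The brightest, 1426785_s_at, varied more within groups than between them, from 653.4 to 1499 in TM175, 527.9 to 1216 in TM180 and 706.9 to 1087 in NTG ventricles. For 1453836_a_at the ranges were 293.5 to 501.7 in TM175, 214.3 to 450 in TM180 and 308.6 to 490.2 in NTG ventricles. These last 2 probe sets were each lowest on TM175 array 1, TM180 array 3 and NTG array 2 within their groups, and pooled minus individual extracts was 0.56 ± 0.24 (adjusted p = 0.106) and 0.48 ± 0.19 (adjusted p = 0.0908).

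The dimmest Mgll probe set, 1431331_at, was the only member lower in every TM180 array than in every TM175 array. It read 37.96, 35.25, 39.66 and 38.23 in TM180, against 54.71, 54.83 and 47.99 in TM175 ventricles. The difference was -0.47 ± 0.15 (95% interval -0.81 to -0.14) and did not pass (adjusted p = 0.306, and 0.0884 with extract type). Of all probe sets, 7.37% had TM180 arrays entirely below TM175 arrays. NTG arrays, at 35.44, 56.93 and 37.24, spanned both lines.

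**Figure D2:**
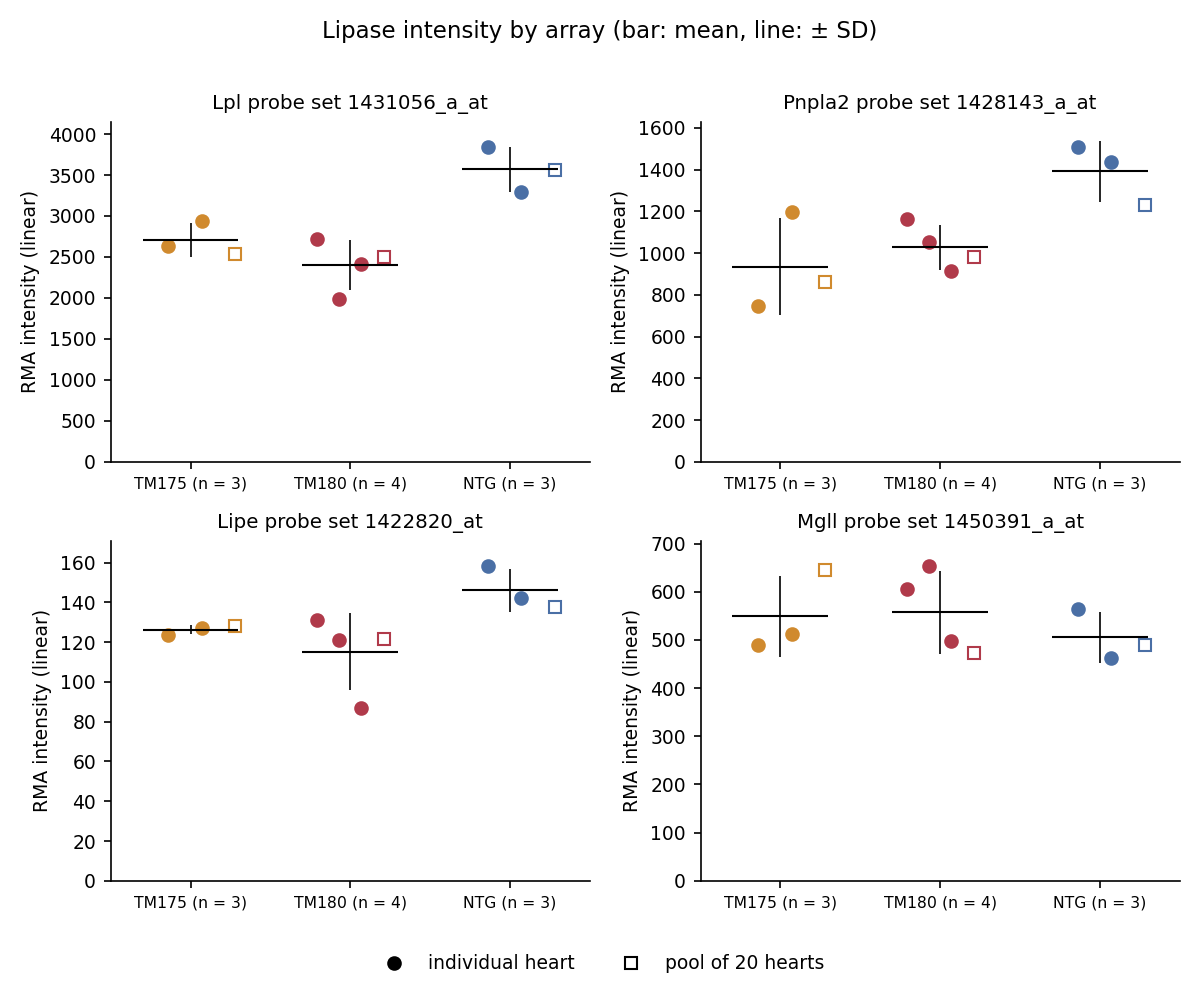
RMA intensity (vertical axes, linear) of 1 probe set each of Lpl, Pnpla2, Lipe and Mgll on the TM175, TM180 and NTG arrays (horizontal axis). Circles are individual hearts, open squares pools of 20 hearts, horizontal bars means and vertical lines ± SD. For Lpl, Pnpla2 and Lipe all 7 transgenic arrays lie below all NTG arrays, and for Mgll the groups overlap.

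Ces1d, chosen on its difference from NTG, is left out of the counts that follow. Of the 10 other probe sets, 3 were below NTG on every TM175 array, as were 8.11% of all probe sets. On every TM180 array 3 of 10 were below NTG (4.19% of all). They were the same 3, 1 each of Lpl, Pnpla2 and Lipe. Being below NTG in both lines thus held for 3 of 10, whereas 2.21% of all probe sets behaved so. The 2 comparisons share the NTG arrays, and the genes were named with these results known. Without TM175 array 1 the count was also 3 of 10 (background 2.48%). The 10 had a median difference of 0.07 (log2) in TM175 and -0.13 in TM180, beside 0.04 and -0.01 over all probe sets. Such gaps were not particular to the lipases. Of 17 measured genes of fatty acid uptake and triglyceride synthesis, 5 were below NTG on every TM175 array and 4 on every TM180 array. In the same list 1 and 3 were above NTG on every array of these lines.

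By the limma test over all probe sets, 0 of the 10 outside Ces1d passed in TM175, where 0.00884% of all probe sets did, and 0 of 10 in TM180, where 0.504% did. With extract type in the model 0 of 10 passed in TM175 (background 0.862%) and 1 of 10 in TM180 (background 2.01%), which was Lpl 1431056_a_at. Between TM180 and TM175 0 of 13 passed with or without extract type (background 0.0265% and 0%, limma), although 3001 had an unadjusted p under 0.05 and 2341 passed with array weights.

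**Figure D3:**
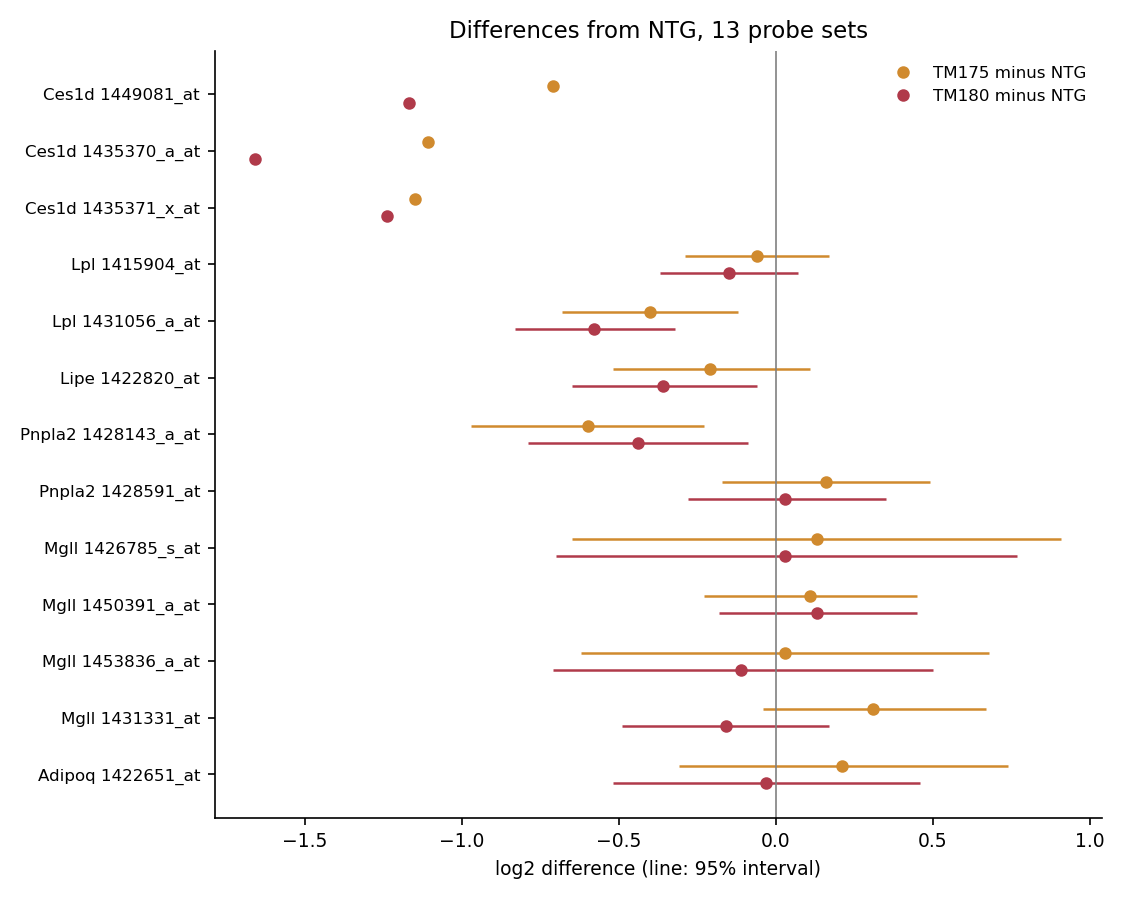
Log2 differences of the 13 probe sets (rows) from NTG in TM175 and TM180 (horizontal axis), with lines for 95% intervals from limma. Ces1d, whose difference from NTG led to its choice, carries no interval, and it lies furthest to the left. The intervals of Lpl 1431056_a_at and Pnpla2 1428143_a_at lie below 0 in both lines, and that of Lipe does so in TM180 only. All other intervals include 0. The intervals are not adjusted for the number of probe sets tested, and none of the differences tested here passed after adjustment.

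Adipoq, the adiponectin gene, overlapped NTG in both lines. It read 20.6, 28.12 and 44.28 in TM175, 21.29, 21.98, 27.64 and 29.76 in TM180, and 27.99, 23.62 and 24.84 in NTG ventricles. The highest value was the TM175 pool, where 2 of the 3 Ces1d probe sets were also at the top of their line. TM175 differed from NTG by 0.21 ± 0.24 (95% interval -0.31 to 0.74, adjusted p = 0.72) and TM180 by -0.03 ± 0.22 (-0.52 to 0.46, adjusted p = 0.999). Without TM175 array 1 the TM175 difference was 0.47 (adjusted p = 0.537). Between pools alone it was 0.83 in TM175 and 0.26 in TM180, and between individual extracts -0.10 and -0.13. Pooled minus individual extracts was 0.39 ± 0.16 (adjusted p = 0.0936). The Adipoq promoter, at chr16:23146286-23146585 (plus strand, RefSeq, GRCm38.p6), is shown as that of the fat cell marker whose arrays overlapped between groups, and it held 3 CCAAT boxes, in capitals, and none of the other 3 motifs.
Adipoq: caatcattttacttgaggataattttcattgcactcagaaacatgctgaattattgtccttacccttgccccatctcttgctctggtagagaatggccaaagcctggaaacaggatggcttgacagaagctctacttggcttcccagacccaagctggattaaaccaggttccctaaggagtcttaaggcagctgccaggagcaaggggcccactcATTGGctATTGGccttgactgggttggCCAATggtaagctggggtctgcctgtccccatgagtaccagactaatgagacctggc

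Of 14 fat cell markers 11 were measured, and 0 passed in any genotype comparison, where at most 0.504% of all probe sets did. Their median difference on the log2 scale was 0.09 for TM175 and -0.02 for TM180. Their summed intensity ran from 2897 to 3934 in TM175, 3102 to 3374 in TM180 and 2875 to 3501 in NTG ventricles, most of it Fabp4, a fatty acid binding protein that endothelium also makes. Without Fabp4 the sums ran from 759 to 993 in TM175, 746 to 859 in TM180 and 942 to 1067 in NTG ventricles, so that all TM180 arrays were below NTG. The gap lay in Thrsp, a regulator of lipid synthesis genes. Without Fabp4 and Thrsp the sums of the remaining 9 were 577 to 606 in TM175, 570 to 618 in TM180 and 563 to 597 in NTG ventricles. Of these 9, Adipoq, Lep, Cidec, Pparg and Aqp7 stayed below the array medians of 66.485 to 70.735 on every array. Cfd, Plin1 and Adrb3 were not measured. The likeness of the sums therefore does not show a like share of fat cells.

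Thrsp read 181.9, 391.4 and 345.8 in TM175, 285.6, 176.4, 207.3 and 242.7 in TM180, and 470.5, 371.2 and 470.3 in NTG ventricles. TM175 differed from NTG by -0.58 ± 0.27 (adjusted p = 0.39) and TM180 by -0.95 ± 0.25 (adjusted p = 0.161, and 0.0607 with extract type), and neither passed. TM175 array 1 lay far below the other 2 of its line, and without it the TM175 difference was -0.24. The other Thrsp probe set, 1422973_a_at, read 95.76, 151.8 and 101.3 in TM175 and 217.5, 144 and 199.1 in NTG ventricles. There TM175 arrays 1 and 3 were both low, and array 2 lay above the lowest NTG array. Its differences were -0.69 in TM175 (limma adjusted p = 0.243) and -0.81 in TM180 (adjusted p = 0.144), and neither passed. Cidea, a droplet protein of brown and white fat cells, read 124.4, 152.5 and 127.6 in TM175, 156 to 185.7 in TM180, and 161.8 to 171.9 in NTG ventricles. All TM175 arrays were below all arrays of TM180 and of NTG, but the difference of -0.31 ± 0.11 from NTG did not pass (adjusted p = 0.288), and it was -0.25 without TM175 array 1. Over all arrays Lep (leptin) read 28.91 to 41.58 and Retn (resistin) 89.71 to 120.1. Cidec, a droplet protein of fat cells, read 12.12 to 14.35. The part of fat tissue in the Ces1d values was not tested beyond these measurements.

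**Figure D4:**
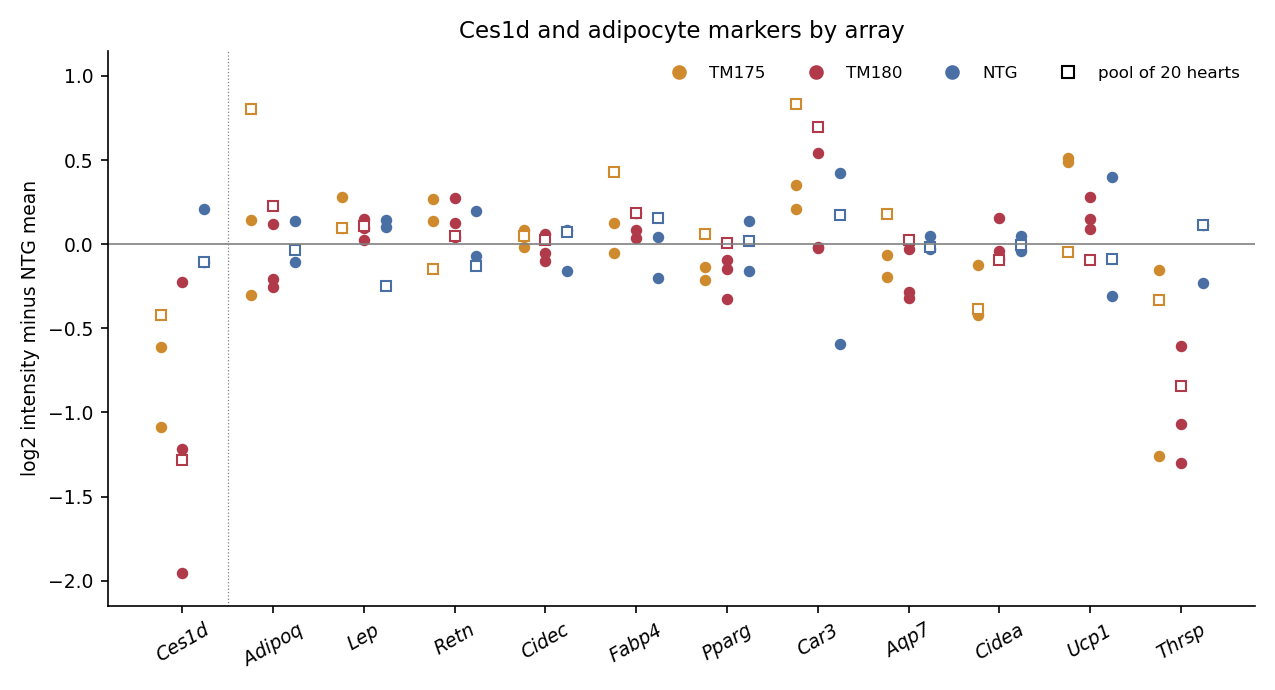
Log2 intensity of Ces1d (1449081_at) and of 11 fat cell markers on each array, minus the mean of the NTG arrays (vertical axis), with TM175, TM180 and NTG side by side for each gene (horizontal axis) and open squares for pools. Ces1d and Thrsp lie below 0 on all 7 transgenic arrays, and Cidea does so on the 3 TM175 arrays. Lep lies above 0 on all 7 transgenic arrays, and Adipoq, Retn and Cidec have transgenic arrays on both sides of 0.

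Markers of other cells were measured beside these genes. Among 6 fibroblast markers Col1a1, a collagen chain, rose by 1.88 ± 0.25 on the log2 scale in TM180 (adjusted p = 0.015), and Lum, a matrix proteoglycan, passed once extract type was included (0.71, adjusted p = 0.049). The summed fibroblast markers ran from 3832 to 6176 in TM175, 4822 to 7221 in TM180 and 3257 to 4780 in NTG ventricles. Summed endothelial markers, from cells that carry lipoprotein lipase on their surface, ran from 2077 to 3010 in TM175, 2178 to 2477 in TM180 and 1959 to 2315 in NTG ventricles. Macrophage sums were 1899 to 2756 in TM175, 2556 to 2993 in TM180 and 2335 to 2713 in NTG ventricles. Of 7 endothelial and 7 macrophage markers 0 passed, where at most 0.504% of all probe sets did. Their part in the values of Ces1d and the lipases was not tested.

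The other genes of droplet lipolysis gave no call. Of 19 lipolysis partners and droplet coat genes 16 were measured and 0 passed, where at most 0.504% of all probe sets did. The list had medians of -0.09 in TM175 and -0.10 in TM180. Pnpla8, a calcium-independent phospholipase of mitochondria and peroxisomes, read 278.6 to 378.9 in TM175, 386.4 to 476.8 in TM180 and 433 to 519.7 in NTG ventricles. Its difference was -0.56 ± 0.13 in TM175 (adjusted p = 0.168, and 0.0576 with extract type) and -0.68 without TM175 array 1, and TM175 arrays lay below those of both other groups. G0s2, an inhibitor of the Pnpla2 enzyme, had a difference of -0.56 ± 0.27 in TM180 (adjusted p = 0.565), with NTG arrays from 225.4 to 507 that overlapped the 209.8 to 311.5 of TM180.

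Of 19 genes of fatty acid uptake and triglyceride synthesis 17 were measured, and Scd1 alone passed, in TM180 with extract type in the model. In that fit 2.01% of all probe sets passed. Scd1, the stearoyl-CoA desaturase, read 148.1 to 177.8 in TM175, 148.4 to 186.4 in TM180 and 110.1 to 133.2 in NTG ventricles, above NTG on every transgenic array. Its difference in TM180 was 0.47 ± 0.12 (adjusted p = 0.139), and 0.49 with extract type (adjusted p = 0.0383). Agpat3, an acyltransferase of phospholipid and triglyceride synthesis, read 257.8 to 314.6 in TM175, 284.8 to 399.7 in TM180 and 401.4 to 506 in NTG ventricles. Its difference was -0.62 ± 0.14 in TM175 (adjusted p = 0.168, and 0.0523 with extract type), or -0.54 without TM175 array 1, and -0.36 in TM180 (adjusted p = 0.38). Lpin1, a phosphatidate phosphatase, had a difference of -0.48 ± 0.16 in TM175 (adjusted p = 0.256), or -0.42 without TM175 array 1, and -0.44 in TM180 (adjusted p = 0.303). For both genes all transgenic arrays were below all NTG arrays. The list had medians of -0.06 in TM175 and -0.05 in TM180, beside 0.04 and -0.01 over all probe sets.

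The genes most like Ces1d across the arrays were sought by correlation of log2 intensity with 1449081_at over 10 arrays after the means of pooled and individual extracts were subtracted. Dgat2, which adds the last fatty acid in triglyceride synthesis, came first with r = 0.985, followed by Acadvl, the very long-chain acyl-CoA dehydrogenase of mitochondrial fatty acid oxidation (0.976), Selenbp1, a selenium-binding protein (0.959), Etfb, the beta subunit of the electron transfer flavoprotein (0.956), and Asb14, an ankyrin repeat protein (0.951). The arrays share genotype as well as RNA, so part of each r is the difference between groups. Within the 7 transgenic arrays r was 0.979 for Dgat2, 0.972 for Acadvl, 0.957 for Selenbp1, 0.913 for Etfb and 0.927 for Asb14. These genes were taken from the top of a ranking of all genes, and a high r is therefore a description only.

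Dgat2 read 853.9, 1179 and 1008 in TM175, 1183, 576.5, 776.7 and 681.9 in TM180, and 1464, 1405 and 1273 in NTG ventricles. As for Ces1d, TM180 array 1 was the highest and TM180 array 2 the lowest of its line, and all transgenic arrays were below NTG. TM175 differed from NTG by -0.46 (adjusted p = 0.413) and TM180 by -0.83 (adjusted p = 0.144, and 0.0515 with extract type), and neither passed. Without TM175 array 1 the TM175 difference was -0.34. Acadvl read 2919, 3236 and 3158 in TM175, 3367, 2684, 2818 and 2798 in TM180, and 3542, 3574 and 3255 in NTG ventricles. Here TM180 array 1 lay within the NTG range, and the difference in TM180 was -0.25 (adjusted p = 0.436).

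**Figure D5:**
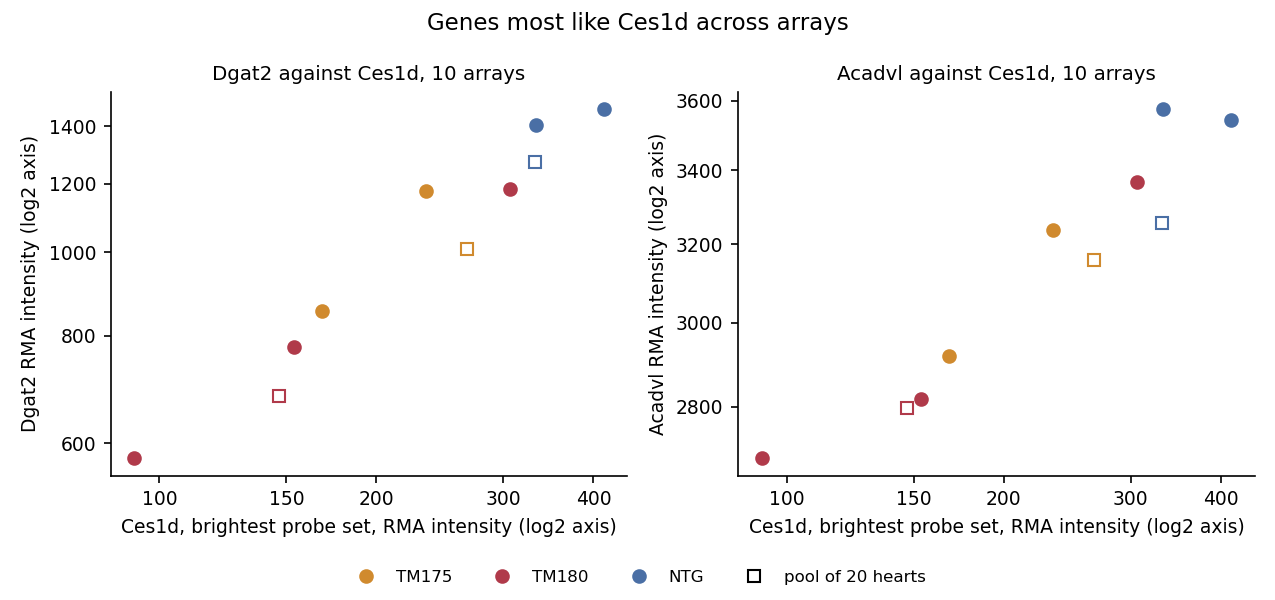
RMA intensity of Dgat2 and Acadvl (vertical axes, log2 axes) against that of Ces1d 1449081_at (horizontal axes, log2 axes) on 10 arrays, coloured by genotype, with open squares for pools. TM180 array 2 sits at the lower left and NTG array 1 at the far right of both panels, and the correlations after removal of extract type means are 0.985 and 0.976.

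Among the lipases Lpl 1431056_a_at had the highest Pearson r with Ces1d by the same measure, r = 0.894 over 10 arrays and 0.816 within the 7 transgenic arrays. Lipe had r = 0.656 and Pnpla2 1428143_a_at r = 0.651, which within the transgenic arrays were 0.353 and 0.22. By rank Lipe came first, with a Spearman rho of 0.939 against 0.915 for Lpl 1431056_a_at. The other probe set of Lpl, 1415904_at, had r = 0.598 and that of Pnpla2, 1428591_at, r = -0.213. The 4 Mgll probe sets lay between -0.114 and 0.238, and Adipoq at 0.153. Thrsp 1424737_at had r = 0.896, and 0.789 within the transgenic arrays.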

How the data were processed

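Total RNA of mouse ventricles was measured on 10 Affymetrix arrays, 1 per extract. Per the submitters' processing notes the authors made the deposited intensity values with RMA (background correction, quantile normalization, probe summary; version not stated); they are on a linear scale, and the number of arrays limits the precision. A point stood before the last 3 digits of deposited intensities that reach 1000. This was undone from the digits and the other arrays of each probe set for 7614 of 226900 values in 1034 probe sets, and 663 tested probe sets whose level could not be settled kept their written values. On data simulated from the settled values as first read, 3 of 219850 values were read wrongly. That check takes the first reading as right, so it cannot show how many deposited values were misread. Log2 of the deposited intensities was then taken.

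Of 22690 probe sets 64 controls were left out. The platform annotation gave 20380 of the others 1 gene symbol, 691 several and 1555 none. Array medians ran from 66.485 to 70.735. limma 3.58.1 (lmFit, eBayes) in R 4.3.3 fitted 1 mean per genotype over all 10 arrays, with two-sided tests and Benjamini-Hochberg adjustment over 22626 probe sets at 0.05. Each line was set against NTG, TM180 against TM175, and pooled against individual extracts beside genotype. Log2 differences stand with SE and 95% intervals, and linear intensities with SD. Tables and plots were made in Python 3.11.15 with pandas 2.3.3, numpy 2.4.6 and matplotlib 3.10.9. No detection calls were used.

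Genes and the 9 lists (4 of pathways, 5 of cell markers) were chosen with earlier results of these data known. For a list gene the brightest settled probe set with 1 symbol was used, and for Thrsp the other probe set is given too. Named were the members, in each list and comparison up to 4 genes that passed with or without extract type and otherwise the 2 smallest p-values, of which some are described here, and the 5 genes most like Ces1d with a mean intensity above 100, with no member or Ces1 relative among them. Endothelial, cardiomyocyte and macrophage genes so named are given as sums. Lep, Retn, Cidec, Fabp4, Pparg, Myh6, Ces1c, Xist and Eif2s3y were named besides, after their values were seen. Same-numbered arrays did not deviate together in every pair (correlations from -0.534 to 0.707), so the numbers were not taken as pairs. Alternatives were renewed quantile normalization, median centring, a filter on dim or unsettled probe sets, extract type as a covariate, individual extracts only, pooled extracts only, replicate number as a block, array weights, an intensity trend with robust fitting, only the groups compared, the mean of a gene's probe sets, and each array left out.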

Additional observations from a re-analysis of the deposited data

Results flagged for a closer look

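In TM180 ventricles, the only group large enough for this check, Mgll 1453836_a_at read 214.3 on array 3, against 410.7 to 450 on the other 3 arrays. The gap to the nearest array made up 0.877 of the range of the group, above Dixon's 95% critical value for 4 samples. The check was run on 13 probe sets, and chance flags about 1 group in 20. TM180 array 3 was also the lowest of its line for Mgll 1426785_s_at (527.9) and Lipe (86.95), with gaps of 0.810 and 0.804 of the range, below the critical value.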

How the results depend on the processing

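All log2 differences of Ces1d from NTG kept their direction under each alternative, from -0.31 to -1.97 over the 3 probe sets and both lines, and those of Lpl 1431056_a_at, Lipe and Pnpla2 1428143_a_at did so too. The counts of 13 probe sets below include Ces1d. It was chosen on its difference from NTG, so a count that includes it is no test of that difference. Only calls on the 10 other probe sets are read against NTG. In TM175 0 of 13 probe sets passed. The count was 5 with array weights and 1 with extract type, and without Ces1d it was 3 and 0 of these 10. The 3 were Lpl 1431056_a_at (adjusted p = 0.0387), Pnpla2 1428591_at (0.025) and Mgll 1431331_at (0.0132). Array weights also called 5361 of all probe sets there. In TM180 0 of these 10 passed. Only Lpl 1431056_a_at did so under alternatives. These were probe sets above the median level, array weights, extract type, and extract type without TM175 array 1. With individual extracts only, with the replicate number as a block or with only the groups compared 0 passed. Leaving out each array gave 0 of these 10 in TM175 and in TM180. Between TM180 and TM175, with Ces1d counted, 0 of 13 passed, and 1 with array weights, Mgll 1431331_at (adjusted p = 0.028). Pooled against individual extracts 0 of 13 passed, and leaving out each array gave 0 to 1, with 1 without NTG array 1 or NTG array 3. For Lpl 1431056_a_at in TM180 the adjusted p ran from 0.0163 to 0.26, and the test passed in 4 alternatives. Over all probe sets the calls were 2 (0 to 5361) in TM175, 114 (8 to 754) in TM180, 0 (0 to 2341) between the lines and 5013 (1922 to 6791) between extracts. The replicate block left 0 calls among the probe sets counted in each genotype comparison and 1, 32 and 0 calls over all probe sets.

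Of 858 alternative values of 39 member differences, 44 in 17 differences turned sign under alternatives with a test, and 0 of these passed. Another 7 turned between the pools alone, where there is no test, for 19 differences in all. These were Pnpla2 1428591_at -0.15 in TM175, -0.01 in TM180 and 0.14 between the lines, Mgll 1450391_a_at -0.05 in TM180 and -0.45 between the lines, Mgll 1431331_at 0.04 in TM180 and Adipoq 0.26 in TM180. Leaving out each array in turn gave these ranges where the sign turned. In TM175 they were Lpl 1415904_at -0.09 to 0.00, Pnpla2 1428591_at -0.01 to 0.34, Mgll 1426785_s_at -0.15 to 0.45, Mgll 1450391_a_at -0.01 to 0.20, Mgll 1453836_a_at -0.14 to 0.24 and Adipoq -0.08 to 0.47. In TM180 they were Mgll 1426785_s_at -0.16 to 0.31, Mgll 1453836_a_at -0.27 to 0.14, Mgll 1431331_at -0.29 to 0.06 and Adipoq -0.11 to 0.05. Between the lines they were Ces1d 1435371_x_at -0.24 to 0.01, Pnpla2 1428591_at -0.31 to 0.04, Mgll 1426785_s_at -0.41 to 0.19, Mgll 1450391_a_at -0.06 to 0.14, Mgll 1453836_a_at -0.35 to 0.12 and Adipoq -0.50 to 0.05. Under other settings the values of opposite sign were Mgll 1426785_s_at -0.04 in TM175, Mgll 1450391_a_at -0.03 in TM175, Adipoq -0.10 in TM175 and Mgll 1426785_s_at 0.06 between the lines with individual extracts only, Mgll 1450391_a_at -0.06 in TM175, Mgll 1426785_s_at -0.01 in TM180 and Pnpla2 1428143_a_at -0.01 between the lines with array weights, Mgll 1453836_a_at -0.02 in TM175 with median centring, Mgll 1426785_s_at -0.09 in TM180 with the replicate block, Mgll 1426785_s_at -0.03 in TM180 with the mean of a gene's probe sets, Adipoq 0.00 in TM180 with extract type in the model, Pnpla2 1428143_a_at -0.05 between the lines and Mgll 1450391_a_at -0.07 between the lines with extract type and without TM175 array 1, Mgll 1450391_a_at -0.14 between the lines with renewed quantile normalization. The cause was not tested. The number of arrays limits what can be seen.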
